A study of Mus musculus with 24 samples.

Results

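Collagen genes were followed in mouse C2C12 cells, an established myoblast line that can stop dividing and fuse into myotubes. A gene was a member where a probe set of either array design, MA or MB, named it alone and its symbol had the form Col, a number, a and a number. In all, 82 probe sets (58 on MA and 24 on MB) named 42 collagen genes out of 18193 genes named by the arrays. Each gene is described by 1 probe set. This is its brightest on MA over the 12 cultures for 36 genes, and its brightest on MB for the 6 genes that only MB names. An MB probe set could be brighter than the MA one used, as for Col12a1. By class, 11 members were fibrillar collagens, 8 were collagens of basement membranes and 23 were of other kinds. Of the 42 genes, 26 passed the filter on low intensity and were tested: 8 fibrillar, 5 basement membrane and 13 other. Members were chosen by name and not by their values.

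Total RNA of 12 cultures was hybridised to both designs, which gave 24 arrays. The 4 groups were DM at 5 mM glucose, DM at 25 mM glucose, GM at 5 mM glucose and GM at 25 mM glucose, with 3 cultures each. For this line DM and GM commonly stand for differentiation medium and growth medium, but the labels give the abbreviations only and state neither serum nor culture time. The submitters asked whether calorie restriction alters how skeletal myoblasts differentiate, and here glucose was the variable that was lowered. All groups were the same unmodified line, so the cultures model 1 cell line and not muscle with its fibroblasts and vessels. Nothing states that the 3 cultures of a group were grown independently, so a p-value here covers the variation among these samples, which may be technical.

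Collagens are secreted proteins whose chains wind around each other into a rope-like helix. Fibrillar collagens (types I, II, III, V, XI, XXIV and XXVII) pack into the tension-bearing fibrils of connective tissue. Type IV collagen forms the sheet-like network of basement membranes, the layer that surrounds every muscle fibre, and types XV and XVIII sit in or beside it. Type VI collagen forms beaded filaments that tie the basement membrane of muscle to the surrounding matrix, and mutations in the genes of its main chains cause muscle disease in humans. Inside the cell the chains are hydroxylated, folded and exported. Outside the cell their ends are cut off and they are cross-linked, bound by receptors and degraded.

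Muscle markers checked the cultures against their label. Of 7 myoblast and muscle genes 5 were higher in DM at both glucose levels. Over all genes tested 9.95% were called higher at 5 mM and 12.7% at 25 mM. The list summed to 16410 to 27782 in DM at 5 mM and 19950 to 34668 in DM at 25 mM. In GM the sum was 2200 to 2735 at 5 mM and 2326 to 2475 at 25 mM. Myog, Acta1 and Myh3 had GM means of 6.33 to 23.3, under the MA filter of 35.5, which they passed through DM. Their calls give no support beyond these readings. Of 9 fibroblast markers only Pdgfrb and Twist2 passed the filter, and both were lower in DM; the list summed to 283 to 353 in DM and 534 to 688 in GM. Of the endothelial and blood markers 2 passed, Cd14 (lower in DM at both levels) and Kdr (not called), and of the osteoblast list only Sp7 passed and was not called. The Cd14 mean in DM at 25 mM, 34.0, was under the filter of 35.5, which Cd14 passed through the other groups. Its call at 25 mM gives no support beyond these readings. Of 8 chondrocyte markers Sox9 and Comp passed, and Sox9 was lower in DM at 25 mM (log2 change -0.63, adjusted p = 0.0165) while Comp was not called. The control for 18S ribosomal RNA set 4 cultures apart, with 23.0 to 48.1 on MA against 279 to 1267 in the other 8. No label names this split. On the same 4 MA arrays the largest intensity was 6719 to 9752, against 17234 to 22957 on the other 8. These low-18S cultures were replicate 2 of DM at 5 mM, replicate 3 of DM at 25 mM and replicates 1 and 2 of GM at 5 mM, so none was in GM at 25 mM. The log2 ratio of the 3' to the 5' Actb control on MA, a sign of RNA quality, ran from 0.10 to 0.37 in DM at 5 mM, from 0.12 to 0.18 in DM at 25 mM, from -0.05 to 0.38 in GM at 5 mM and from 0.34 to 0.55 in GM at 25 mM. The part of these differences in the results below was not tested, except where values with the 18S batch are given. A bulk measurement cannot tell fewer cells that express a gene from less RNA per cell.

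Promoter windows are shown for Col4a1, Col4a2, Col6a1 and Col6a2, because these neighbouring pairs moved together in the comparisons of medium. Windows run from 250 bases before to 50 bases after the annotated start, are read 5' to 3' on the strand of the gene, and come from RefSeq on GRCm38.p6; 33 of the 42 members had at least 1. Capitals mark GGGCGG, the letters of a GC box, and CCAAT, on either strand (CCGCCC and ATTGG are the same motifs read on the opposite strand).
Col4a1: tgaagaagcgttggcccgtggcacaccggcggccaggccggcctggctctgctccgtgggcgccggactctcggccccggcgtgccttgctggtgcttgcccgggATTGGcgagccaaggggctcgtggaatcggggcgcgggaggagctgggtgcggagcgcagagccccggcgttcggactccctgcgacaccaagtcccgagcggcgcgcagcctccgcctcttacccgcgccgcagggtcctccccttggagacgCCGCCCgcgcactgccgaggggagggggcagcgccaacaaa
Col4a2: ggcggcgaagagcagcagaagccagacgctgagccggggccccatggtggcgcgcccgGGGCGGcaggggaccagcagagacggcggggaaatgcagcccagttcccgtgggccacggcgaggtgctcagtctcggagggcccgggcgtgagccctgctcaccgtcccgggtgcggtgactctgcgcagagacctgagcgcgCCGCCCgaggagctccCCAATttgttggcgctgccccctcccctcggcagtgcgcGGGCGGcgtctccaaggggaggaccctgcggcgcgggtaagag
Col6a1: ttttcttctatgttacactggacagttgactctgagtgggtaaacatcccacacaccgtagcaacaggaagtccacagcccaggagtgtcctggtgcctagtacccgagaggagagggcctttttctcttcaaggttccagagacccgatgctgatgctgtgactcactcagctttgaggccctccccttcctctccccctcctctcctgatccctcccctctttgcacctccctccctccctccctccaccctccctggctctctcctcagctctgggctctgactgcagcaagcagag
Col6a2: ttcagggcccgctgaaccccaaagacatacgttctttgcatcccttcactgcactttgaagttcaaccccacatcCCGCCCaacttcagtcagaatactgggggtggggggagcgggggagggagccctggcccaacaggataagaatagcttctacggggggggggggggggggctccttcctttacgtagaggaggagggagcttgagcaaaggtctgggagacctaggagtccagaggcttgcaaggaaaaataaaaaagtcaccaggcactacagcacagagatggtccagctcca
Col4a1 (chr8:11312777-11313076, minus strand) and Col4a2 (chr8:11312555-11312854, plus strand) are transcribed away from each other, with start sites 21 bases apart. Their windows shared 78 bases, and 1 GC box match in that stretch was counted for both genes. In all, Col4a1 had 1 GC box and 1 CCAAT, and Col4a2 had 3 GC boxes and 1 CCAAT. The CCAAT matches of Col4a1 and Col4a2 were different sites. Col6a1 (chr10:76725995-76726294, minus strand) had neither motif, and the Col6a2 window printed (chr10:76623581-76623880, minus strand) had 1 GC box. A second Col6a2 window, not printed (chr10:76623355-76623654, minus strand), had 3. The E-box CANNTG, the letters bound by MyoD family proteins, had 1 match in Col6a1 and 0 in the other windows printed. Among all 32851 promoter windows of the table, 35.7% held GGGCGG, 37.4% CCAAT and 72.3% CANNTG. Among the 33 members with a window these counts were 21, 13 and 18. A match describes letters and not a working site.

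In DM at 25 mM glucose, against GM at 25 mM, 5 collagen genes were higher and 4 lower. The higher ones were the fibrillar gene Col1a1, the type IV pair Col4a1 and Col4a2, and the type VI pair Col6a1 and Col6a2. Those lower were Col4a5, Col18a1, Col12a1 and Col16a1. Over all 12135 genes tested 12.7% were called higher and 16.7% lower; the 5 and 4 of 26 are 19.2% and 15.4% of the tested members. The median log2 change was -0.18 over the members and -0.11 over all genes. Centring each array on its median in place of the deposited scaling moved the median of all genes to 0.07 and the split of all calls to 2089 higher and 1247 lower, against 1539 higher and 2024 lower as deposited, and it left 5 collagen genes higher and 1 lower. The calls of Col4a5, Col12a1 and Col16a1 were lost with median centring (adjusted p = 0.139, 0.152 and 0.0717) and with quantile normalization (adjusted p = 0.117, 0.0709 and 0.0855), and they kept their sign.

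At 5 mM glucose the set was different in part. Col5a3, Col6a1 and Col6a2 were higher in DM than in GM (3 of 26, background 9.95%), and Col18a1, Col6a3, Col8a1, Col8a2 and Col12a1 were lower (5 of 26, background 14.2%). The median log2 change was -0.00 over the members and -0.04 over all genes. Lowering glucose in DM gave no member called higher (background 0.461%) and 4 called lower, Col1a1, Col4a1, Col4a2 and Col8a1, or 15.4% of the tested members against 0.964% of all genes. In GM limma called 0 members in either direction (background 0.00824% higher and 0% lower). There 2 of the 26 had an unadjusted p under 0.05, as did 1157 of all 12135 genes. The glucose change differed between the media for 3 members, Col1a1, Col4a1 and Col4a2, all in the direction of a lower glucose change in DM (11.5% of the tested members against 0.363% of all genes), and for 0 in the other direction (background 0.132%). For Col1a1 that difference uses GM at 25 mM, where its mean was under the filter, so the call gives no support beyond its readings. Altogether 13 members were called in at least 1 comparison. The comparisons share groups, so their calls are not independent of each other.

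**Figure D1:**
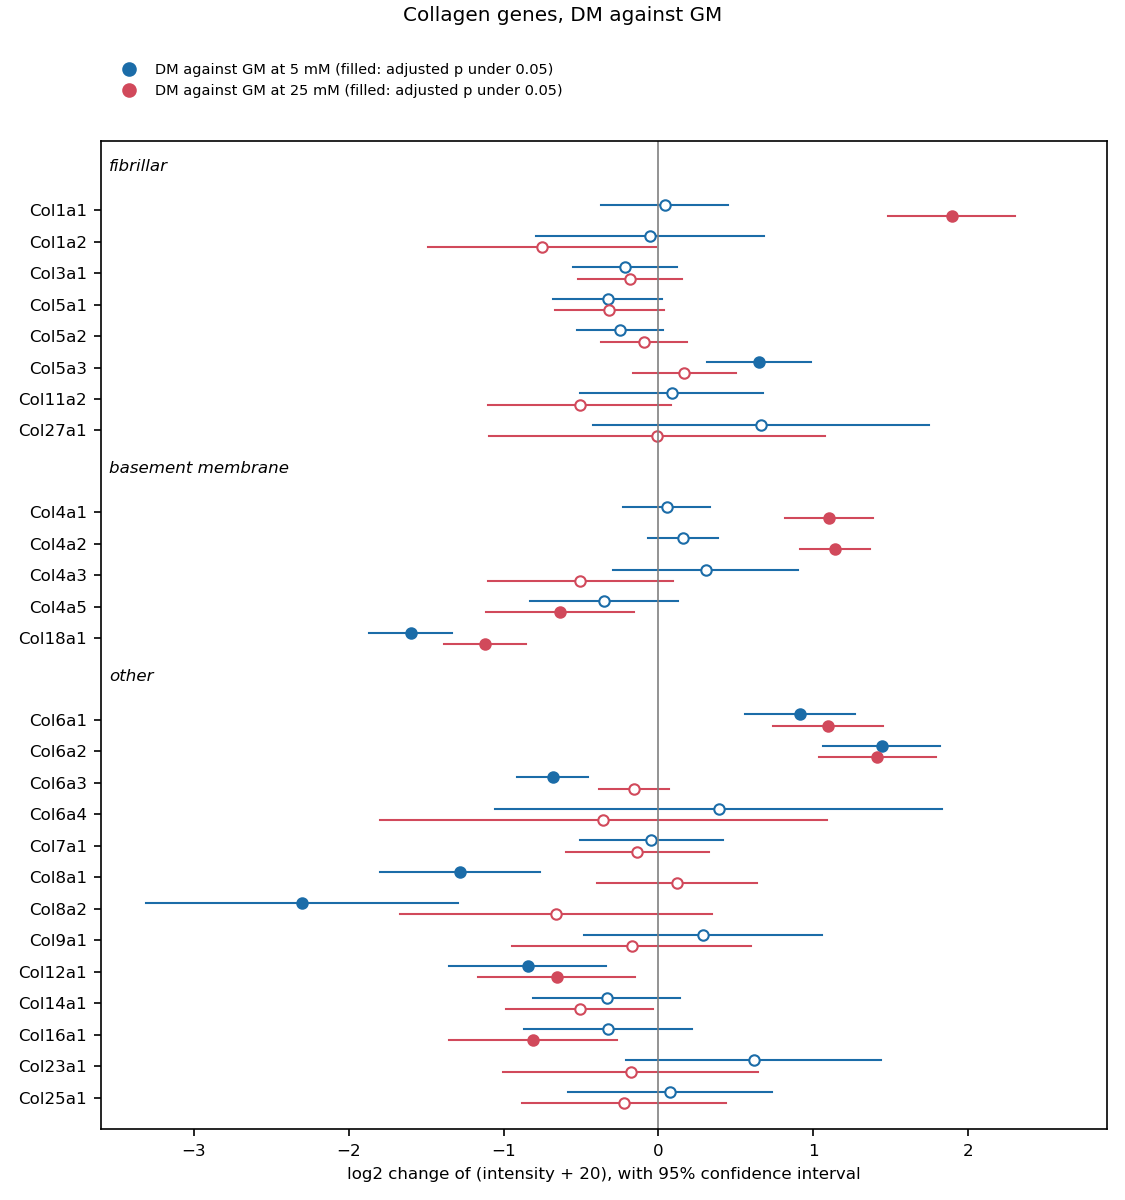
Log2 change of intensity plus 20 in DM against GM (x axis) for the 26 tested collagen genes, by class, at 5 mM (blue) and 25 mM (red); bars are 95% confidence intervals and filled points have an adjusted p under 0.05. Col6a1 and Col6a2 lie right of 0 at both glucose levels and Col18a1 lies left at both, whereas Col1a1, Col4a1 and Col4a2 lie right at 25 mM and near 0 at 5 mM.

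Col4a1 and Col4a2 encode the chains that make up the common type IV collagen of basement membranes. The Col4a1 probe set read 548, 632 and 502 in DM at 5 mM, 968, 1021 and 1087 in DM at 25 mM, 570, 586 and 463 in GM at 5 mM, and it read 434, 530 and 441 in GM at 25 mM. All 3 cultures of DM at 25 mM lay above the other 9, which overlapped. The log2 change was 1.10 (SE 0.13, adjusted p = 1.5e-05) for DM against GM at 25 mM, and 0.05 (95% interval -0.23 to 0.34, adjusted p = 0.814) at 5 mM. Within DM it was lower at 5 mM than at 25 mM by a log2 difference of -0.85 (SE 0.13, adjusted p = 0.00314), and within GM the difference was 0.19 (adjusted p = 0.556). The second Col4a1 probe set gave the same calls, with 0.94 (adjusted p = 6.8e-05) at 25 mM, -0.01 (adjusted p = 0.982) at 5 mM and -0.58 (adjusted p = 0.0417) for glucose in DM.

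Col4a2 showed the same order of groups. It read 389, 426 and 375 in DM at 5 mM, 815, 789 and 727 in DM at 25 mM, 369, 341 and 349 in GM at 5 mM, and it read 333, 350 and 340 in GM at 25 mM. DM at 25 mM stood apart from every other culture, and DM at 5 mM lay just above both GM groups. The log2 change for DM against GM was 1.14 (SE 0.11, adjusted p = 1.16e-06) at 25 mM and 0.16 (adjusted p = 0.306) at 5 mM. Lower glucose changed it by -0.94 (SE 0.11, adjusted p = 0.000289) in DM and by 0.05 (adjusted p = 0.868) in GM. The difference between these glucose changes, that in DM minus that in GM, was -0.98 (SE 0.15, adjusted p = 0.00836) for Col4a2 and -1.05 (SE 0.19, adjusted p = 0.0225) for Col4a1. With the 4 low-18S cultures left out, which leaves GM at 5 mM a single culture, the Col4a2 glucose change in DM was -1.03 (adjusted p = 0.002) and that of Col4a1 -0.90 (adjusted p = 0.00833), but the difference between media lost its call, at -1.07 (adjusted p = 0.0726) and -0.89 (adjusted p = 0.188). For Col4a1 that difference also lost its call without any 1 of 8 cultures, with adjusted p between 0.0521 and 0.0986.

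For medium at 25 mM the other tested basement membrane members were lower or not called. Col18a1 encodes type XVIII collagen, the precursor of the fragment endostatin. It read 356, 384 and 463 in DM at 5 mM, 540, 532 and 590 in DM at 25 mM, 1210, 1181 and 1361 in GM at 5 mM, and it read 1317, 1252 and 1119 in GM at 25 mM. Both DM groups lay wholly below both GM groups. The log2 change was -1.60 (SE 0.12, adjusted p = 2.15e-07) at 5 mM and -1.12 (SE 0.12, adjusted p = 7.12e-06) at 25 mM, and its second probe set gave -1.38 (adjusted p = 5.31e-06) and -0.79 (adjusted p = 0.000797). Within DM the 5 mM cultures were all below the 25 mM cultures, at -0.45, which was not called (adjusted p = 0.105) but was with the 18S batch as a block (adjusted p = 0.0269).

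Col4a5, a type IV chain of kidney, lung and other specialised basement membranes, was dim. It read 42.1, 21.0 and 45.8 in DM at 5 mM, 36.3, 41.6 and 31.8 in DM at 25 mM, 44.2, 49.4 and 58.4 in GM at 5 mM, and it read 69.3, 80.0 and 55.2 in GM at 25 mM. At 25 mM the groups did not overlap and the log2 change was -0.63 (SE 0.22, adjusted p = 0.039). Leaving out any 1 of 7 cultures, such as replicate 2 of GM at 25 mM (adjusted p = 0.117), ended that call, as did the 18S block (adjusted p = 0.0535). Col4a3, of the same specialised networks, was not called in any comparison. Col4a4, Col4a6 and Col15a1 did not pass the filter.

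**Figure D2:**
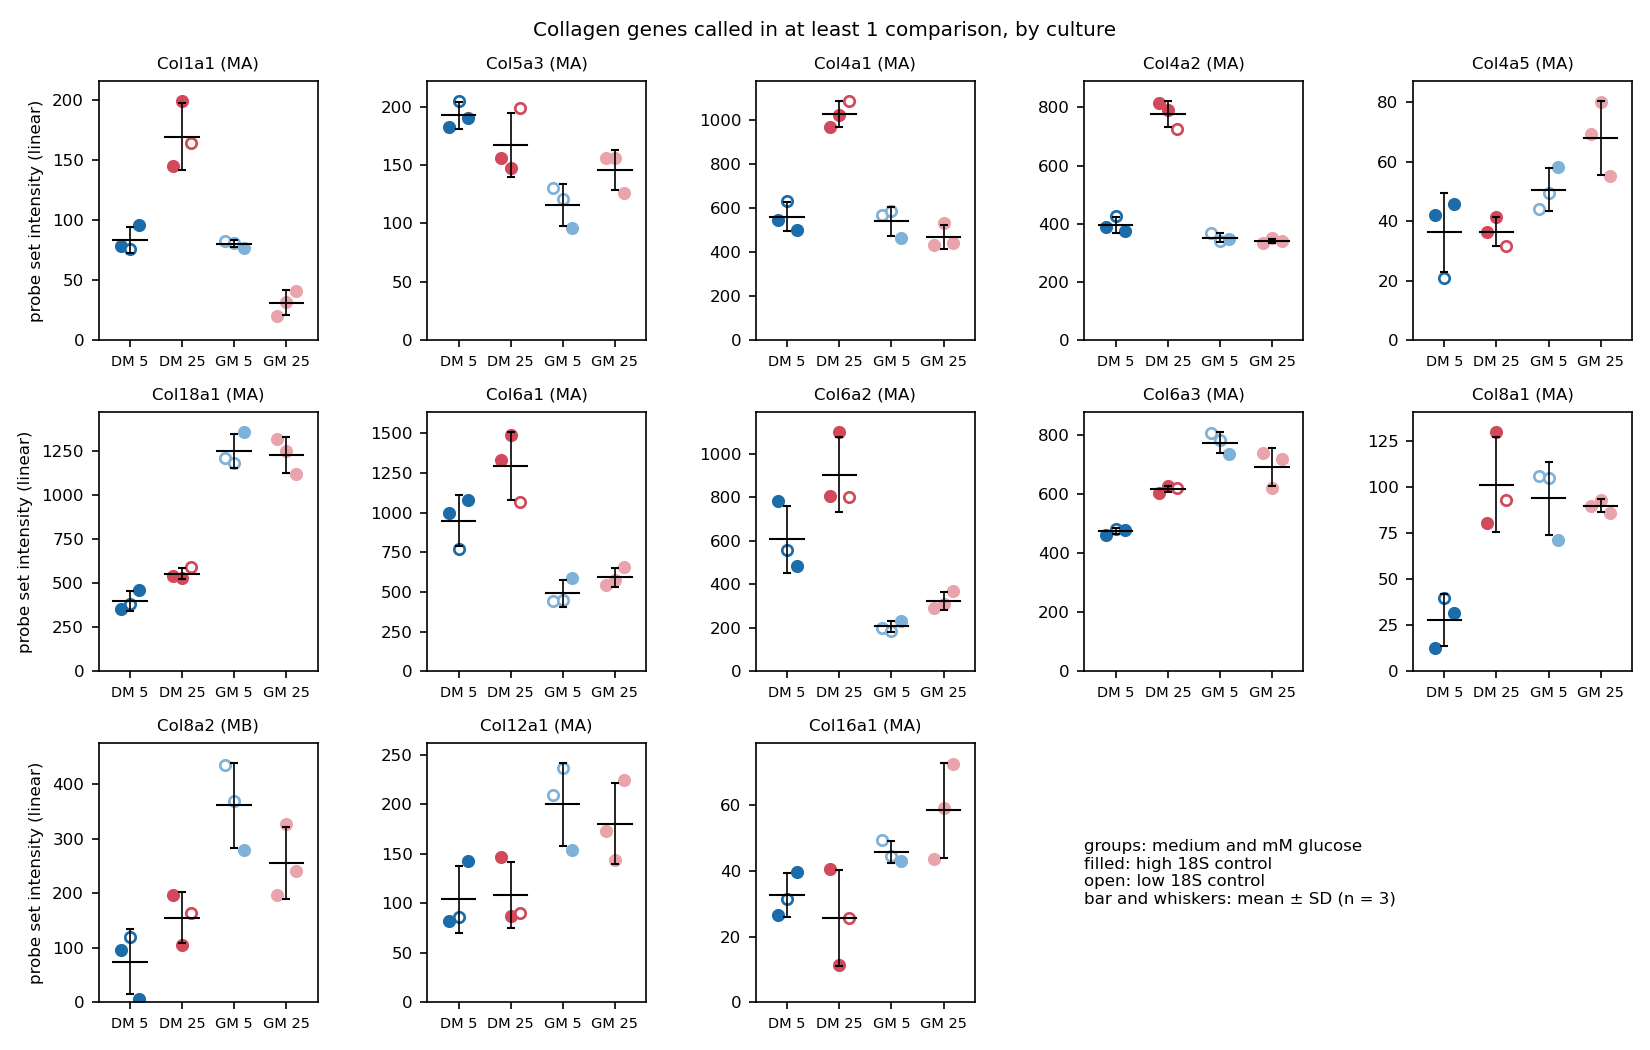
Linear probe set intensity (y axes) in each culture for the 13 collagen genes called in at least 1 comparison, by medium and mM glucose (x axes); points are cultures, open where the 18S control was low, and bars with whiskers are the mean and SD of 3 cultures. For Col4a1 and Col4a2 DM at 25 mM stands above the other groups, for Col6a1 and Col6a2 both DM groups stand above both GM groups, and for Col18a1 both DM groups stand below.

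Among tested fibrillar members Col1a1, a chain of type I collagen, had the largest change with medium at 25 mM. Its probe set read 78.6, 76.0 and 95.9 in DM at 5 mM, 145, 199 and 164 in DM at 25 mM, 82.5, 81.2 and 77.2 in GM at 5 mM, and it read 20.4, 32.2 and 41.4 in GM at 25 mM. DM at 25 mM was highest and GM at 25 mM lowest, with both 5 mM groups together in between. In GM at 25 mM 2 of the 3 readings lay under the filter of 35.5. The mean of that group, 31.3, was under it too, and Col1a1 passed through the other groups. Its calls that use GM at 25 mM therefore give no support beyond these readings. DM against GM was 1.90 on the log2 scale (SE 0.19, adjusted p = 2.81e-06) at 25 mM and 0.04 (95% interval -0.37 to 0.45, adjusted p = 0.906) at 5 mM. Lower glucose went with -0.87 (SE 0.19, adjusted p = 0.033) in DM and with 0.99 (SE 0.19) in GM, where the groups did not overlap but the adjusted p was 0.269. The glucose changes in DM and GM differed by -1.86 (SE 0.27, adjusted p = 0.00772).

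The second Col1a1 probe set did not show this pattern. It read 77.1, 61.1 and 47.4 in DM at 5 mM, 88.3, 57.9 and 44.9 in DM at 25 mM, 33.7, 44.7 and 30.0 in GM at 5 mM, and it read 19.8, 71.9 and 61.0 in GM at 25 mM. DM and GM overlapped at 25 mM, where the change was 0.30 (adjusted p = 0.475). For the brighter probe set the glucose call in DM was also lost without any 1 of 8 cultures (adjusted p 0.0571 to 0.17). In the high-18S cultures alone it was -0.83 (adjusted p = 0.209), and the difference between media was -1.77 (adjusted p = 0.18).

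Col1a2, the partner chain in type I collagen, did not follow Col1a1. It read 4839, 2249 and 5100 in DM at 5 mM, 4759, 4765 and 2432 in DM at 25 mM, 3368, 3028 and 6108 in GM at 5 mM, and it read 6616, 6377 and 6260 in GM at 25 mM. The 4 low-18S cultures, at 2249 to 3368, all read below the 8 high-18S cultures, at 4759 to 6616. Within each of these sets DM lay below GM without overlap, with 4759 to 5100 in DM and 6108 to 6616 in GM among the high-18S cultures, and 2249 to 2432 in DM and 3028 to 3368 in GM among the low-18S cultures. The fit without that control gave -0.75 (SE 0.34, adjusted p = 0.105) at 25 mM and -0.06 (adjusted p = 0.929) at 5 mM. With the 18S batch as a block it was lower in DM at both levels, by a log2 difference of -0.41 (SE 0.08, adjusted p = 0.000751) at 25 mM and -0.39 (SE 0.08, adjusted p = 0.0013) at 5 mM. Within the high-18S cultures the values were -0.43 (adjusted p = 0.00243) and -0.30 (adjusted p = 0.106).

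Col3a1, which co-assembles with type I collagen in soft tissue, was not called in any comparison. It read 2452, 2204 and 2164 in DM at 5 mM, 2731, 2657 and 2504 in DM at 25 mM, 2530, 2279 and 3199 in GM at 5 mM, and it read 2659, 3356 and 3000 in GM at 25 mM. The log2 changes were -0.22 (95% interval -0.55 to 0.12) at 5 mM and -0.19 (95% interval -0.52 to 0.15) at 25 mM. Its groups overlapped between the media at both levels.

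Type V collagen controls the start and width of type I fibrils. Of its chains Col5a3 was called at 5 mM. It read 182, 205 and 190 in DM at 5 mM, 156, 147 and 199 in DM at 25 mM, 130, 121 and 96.2 in GM at 5 mM, and it read 156, 156 and 126 in GM at 25 mM. DM lay above GM at 5 mM by 0.65 (SE 0.16, adjusted p = 0.00561), and the groups overlapped at 25 mM, where the change was 0.17 (adjusted p = 0.426). The difference between the glucose changes was 0.48 (adjusted p = 0.4).

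Probe sets of Col5a1 and Col5a2 disagreed. The brightest Col5a1 probe set read 912, 712 and 1001 in DM at 5 mM, 1187, 1139 and 877 in DM at 25 mM, 1088, 933 and 1283 in GM at 5 mM, and it read 1440, 1314 and 1222 in GM at 25 mM, with changes of -0.33 (adjusted p = 0.16) at 5 mM and -0.32 (adjusted p = 0.15) at 25 mM. Its DM cultures overlapped those of GM at 5 mM and lay wholly below them at 25 mM, and neither change was called. The second probe set read 578, 520 and 577 in DM at 5 mM, 603, 709 and 541 in DM at 25 mM, 320, 304 and 351 in GM at 5 mM, and it read 373, 275 and 347 in GM at 25 mM. Here all 6 DM cultures lay above all 6 GM cultures, by 0.75 (adjusted p = 0.000758) at 5 mM and 0.86 (adjusted p = 0.000198) at 25 mM. The third was higher in DM at 25 mM by 0.81 (adjusted p = 0.0029) and differed by 0.49 (adjusted p = 0.0547) at 5 mM. With the 18S batch as a block the brightest probe sets of Col5a1 and Col5a2 were lower in DM at 5 mM, at -0.46 (adjusted p = 0.00143) and -0.27 (adjusted p = 0.0458).

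For Col5a2 the brightest probe set lay from 1555 to 1798 in DM at 5 mM, from 1742 to 1841 in DM at 25 mM, from 1844 to 2125 in GM at 5 mM and from 1705 to 2109 in GM at 25 mM, and was not called. The second probe set read 341, 319 and 405 in DM at 25 mM, against 156, 221 and 158 in GM at 25 mM, a change of 0.93 (adjusted p = 0.00223), against -0.09 for the brightest. Among the 14 members with several tested probe sets, 3 had a called and an uncalled probe set at 25 mM, 4 had all called in the same direction, 7 had none called and 0 had calls in opposite directions. The probe sequences were not used here, so which transcripts each probe set detects was not checked. Col11a2 and Col27a1, the remaining tested fibrillar members, were not called in any comparison.

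**Figure D3:**
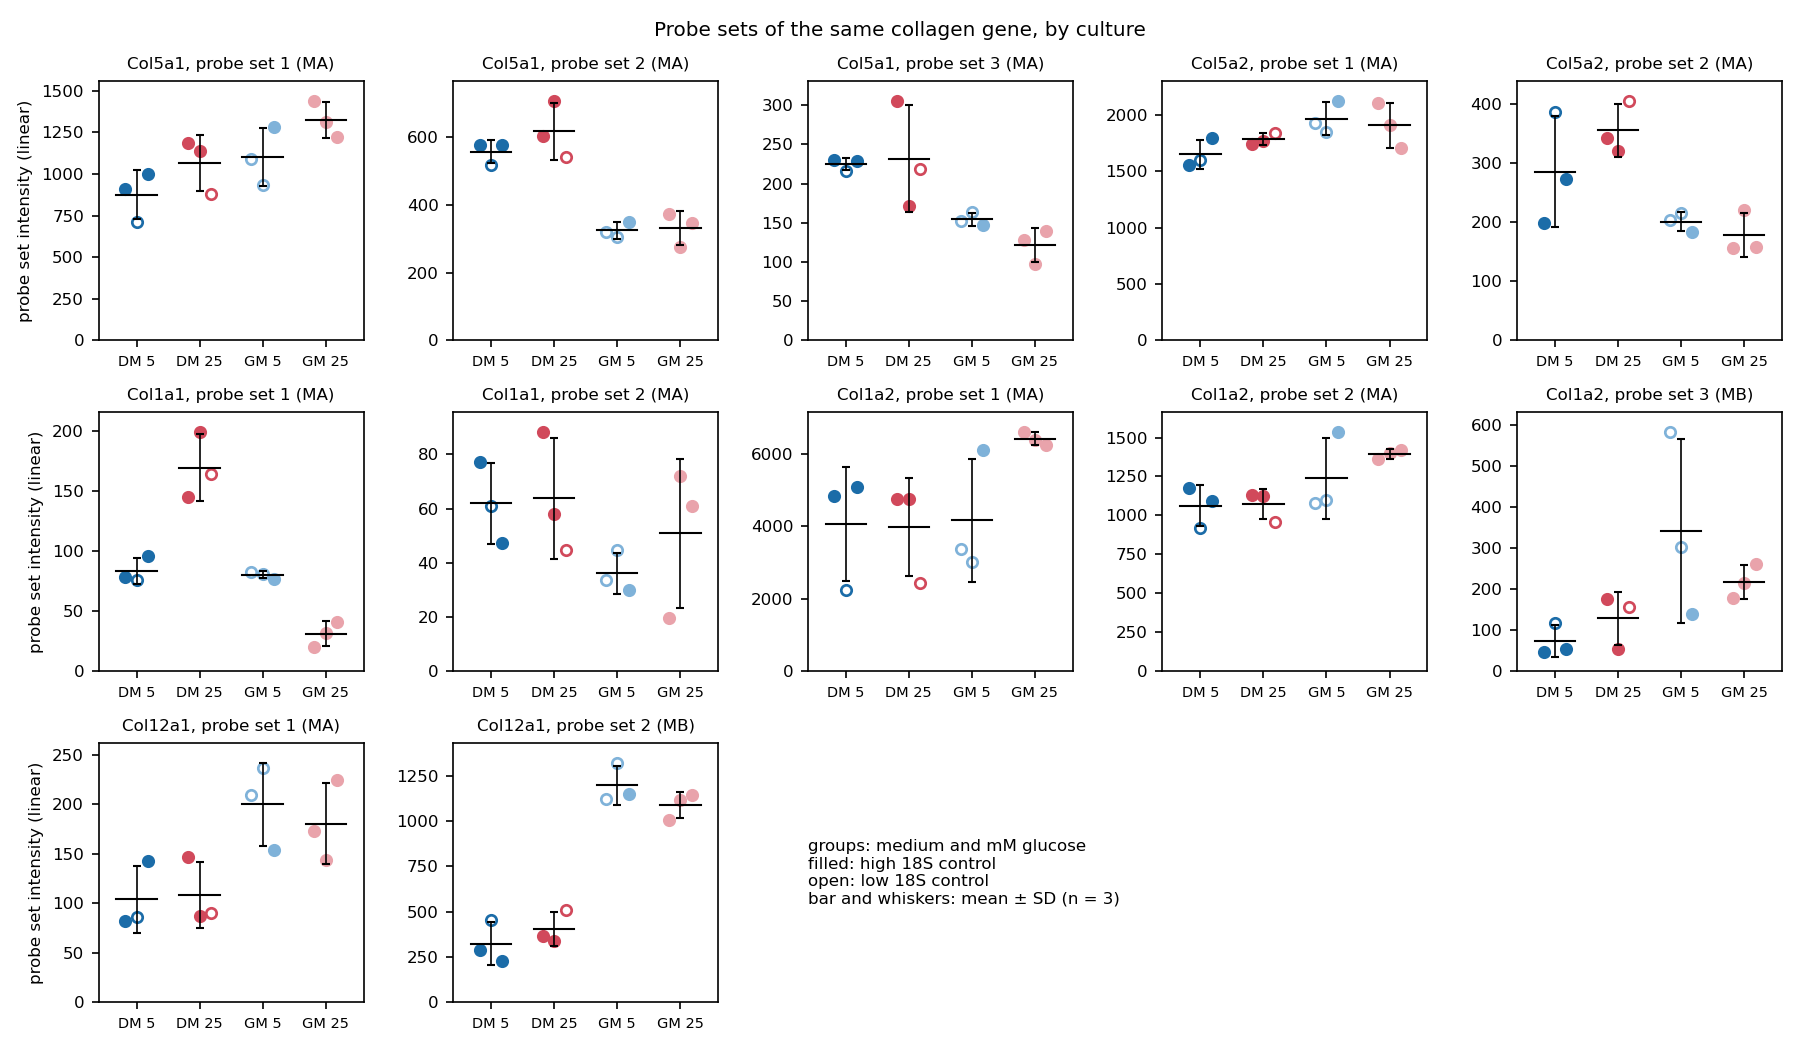
Linear intensity (y axes) in each culture, by medium and mM glucose (x axes), for several probe sets of Col5a1, Col5a2, Col1a1, Col1a2 and Col12a1; points are cultures, open where the 18S control was low, and bars with whiskers are the mean and SD of 3 cultures. Panels number the probe sets of a gene, MA first and then by brightness. Set 1 of Col5a1 lies lower in DM than in GM at 25 mM and overlaps at 5 mM. Sets 2 and 3 of Col5a1 were called higher in DM at 25 mM, and 1 of them at 5 mM. Set 1 of Col1a2 separates open from filled points. Set 2 of Col12a1 lies lower in DM at both levels, while set 1 does so at 5 mM and overlaps at 25 mM.

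Type VI collagen genes differed among themselves: Col6a1 and Col6a2 were higher in DM at both glucose levels and Col6a3 was not. Col6a1 read 998, 768 and 1082 in DM at 5 mM, 1332, 1489 and 1066 in DM at 25 mM, 441, 447 and 589 in GM at 5 mM, and it read 542, 576 and 658 in GM at 25 mM. Every DM culture lay above every GM culture. The log2 change was 0.92 (SE 0.17, adjusted p = 0.000667) at 5 mM and 1.10 (SE 0.17, adjusted p = 0.000131) at 25 mM. Its glucose change in DM was -0.44 (adjusted p = 0.303), which was called with the 18S batch as a block (adjusted p = 0.0121).

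Col6a2, whose chain pairs with that of Col6a1, read 782, 558 and 484 in DM at 5 mM, 806, 1102 and 803 in DM at 25 mM, 201, 187 and 233 in GM at 5 mM, and it read 293, 310 and 369 in GM at 25 mM. The DM cultures were again all above the GM cultures. The change was 1.44 (SE 0.18, adjusted p = 2.06e-05) at 5 mM and 1.42 (SE 0.18, adjusted p = 2.18e-05) at 25 mM. In both media the 5 mM cultures lay below the 25 mM cultures without overlap, at -0.57 in DM (adjusted p = 0.169) and -0.60 in GM (adjusted p = 0.404), and neither was called.

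Col6a3 encodes the long chain of the same heterotrimer and was lower or uncalled. It read 464, 483 and 479 in DM at 5 mM, 606, 628 and 621 in DM at 25 mM, 808, 783 and 736 in GM at 5 mM, and it read 740, 621 and 720 in GM at 25 mM. DM lay below GM at 5 mM, by -0.68 (SE 0.11, adjusted p = 0.000195), and overlapped it at 25 mM, where the difference was -0.16 (adjusted p = 0.268). Lower glucose in DM gave -0.36 without overlap (adjusted p = 0.136, and 0.0332 with the 18S batch as a block). Col6a4, on MB, ranged from 31.3 to 356 within DM at 25 mM and was not called, and Col6a5 did not pass the filter.

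Type VIII collagen is a short-chain network former of vessel and corneal matrix. Col8a1 read 12.6, 39.9 and 31.5 in DM at 5 mM, 80.4, 130 and 93.3 in DM at 25 mM, 106, 105 and 71.2 in GM at 5 mM, and it read 90.1, 93.3 and 86.3 in GM at 25 mM. DM at 5 mM was below all other cultures. The change was -1.28 (SE 0.24, adjusted p = 0.00097) for DM against GM at 5 mM, 0.12 (adjusted p = 0.725) at 25 mM, and -1.36 (SE 0.24, adjusted p = 0.00773) for 5 mM against 25 mM in DM. The difference between the glucose changes was -1.40 (adjusted p = 0.113). Without replicate 2 of DM at 25 mM the glucose call in DM was lost (-1.20, adjusted p = 0.0515), and a second probe set on MB gave -1.58 (adjusted p = 0.145). That MB probe set was not called for DM against GM at 5 mM either (-1.12, adjusted p = 0.081). On MA 2 of the 3 readings in DM at 5 mM, 12.6 and 31.5, lay under the filter of 35.5. Their group mean, 28.0, was under it too, and Col8a1 passed through the other groups, with means of 89.9 to 101. Both of its calls use DM at 5 mM, so they give no support beyond these readings.

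Col8a2, the partner of Col8a1, was measured on MB. It read 96.8, 120 and 7.12 in DM at 5 mM, 198, 105 and 163 in DM at 25 mM, 436, 369 and 280 in GM at 5 mM, and it read 197, 327 and 241 in GM at 25 mM. It was lower in DM at 5 mM without overlap, by -2.30 (SE 0.48, adjusted p = 0.00472), and not called at 25 mM (-0.66, adjusted p = 0.532). Within the high-18S cultures the 5 mM change was -2.41 (adjusted p = 0.169).

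The fibril-associated collagens decorate the surface of fibrils. Col12a1, found in tendon and the sheath of muscle, read 82.2, 86.3 and 143 in DM at 5 mM, 147, 87.5 and 90.0 in DM at 25 mM, 209, 236 and 154 in GM at 5 mM, and it read 173, 144 and 225 in GM at 25 mM. DM lay below GM at 5 mM and overlapped it at 25 mM. The changes were -0.84 (SE 0.24, adjusted p = 0.0146) and -0.66 (SE 0.24, adjusted p = 0.0434), and neither was called when only high-18S cultures entered (adjusted p = 0.459 at 5 mM and 0.117 at 25 mM). Each call was also lost without some single cultures, 3 of them at 5 mM (adjusted p 0.0533 to 0.0695) and 5 at 25 mM.

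The MB probe set of Col12a1 showed the difference without overlap. It read 290, 456 and 227 in DM at 5 mM, 364, 336 and 512 in DM at 25 mM, 1119, 1321 and 1149 in GM at 5 mM, and it read 1006, 1113 and 1143 in GM at 25 mM. Its changes were -1.87 (adjusted p = 2.21e-05) at 5 mM and -1.41 (adjusted p = 0.00051) at 25 mM.

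Col16a1, another fibril-associated collagen, read 26.6, 31.5 and 39.7 in DM at 5 mM, 40.5, 11.3 and 25.6 in DM at 25 mM, 49.5, 44.6 and 43.0 in GM at 5 mM, and it read 43.7, 59.0 and 72.5 in GM at 25 mM. DM lay below GM at both levels. Its DM means, 32.6 at 5 mM and 25.8 at 25 mM, were under the filter of 35.5, which it passed through its GM means of 45.7 and 58.4, so its call gives no support beyond these readings. The fit gave -0.81 (SE 0.25, adjusted p = 0.0219) at 25 mM and -0.33 (adjusted p = 0.386) at 5 mM. The 25 mM call was lost without replicate 2 of DM (adjusted p = 0.104), replicate 2 of GM (adjusted p = 0.0511) or replicate 3 of GM (adjusted p = 0.0846), and in the high-18S cultures alone (adjusted p = 0.0832). Col7a1, of anchoring fibrils, the fibril-associated Col9a1 and Col14a1, and the membrane-spanning Col23a1 and Col25a1 were tested and not called in any comparison.

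**Figure D4:**
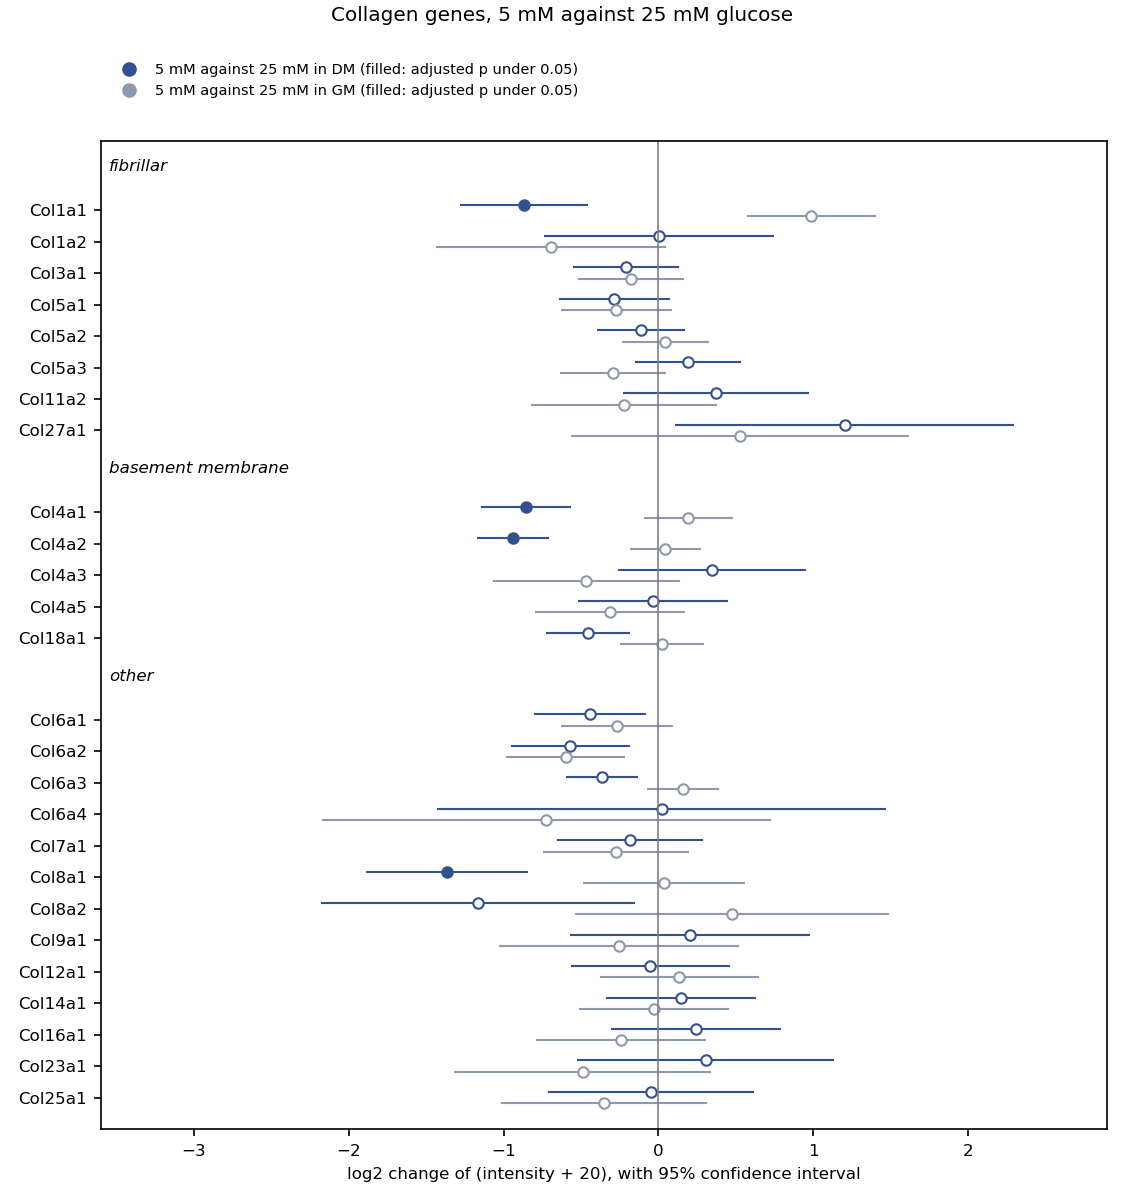
Log2 change of intensity plus 20 at 5 mM against 25 mM glucose (x axis) for the 26 tested collagen genes, by class, in DM (dark) and GM (pale); bars are 95% confidence intervals and filled points have an adjusted p under 0.05. Col1a1, Col4a1, Col4a2 and Col8a1 are filled and left of 0 in DM, no gene is filled in GM, and Col1a1 lies right of 0 in GM.

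The 16 members that did not pass the filter were Col2a1, Col11a1 and Col24a1 among fibrillar collagens, Col4a4, Col4a6 and Col15a1 of basement membranes, and Col6a5, Col9a2, Col9a3, Col10a1, Col13a1, Col17a1, Col19a1, Col20a1, Col22a1 and Col26a1. Their mean intensity over 12 cultures was 1.80 to 33.2 for the 14 on MA, where the filter lay at 35.5, and 29.9 to 45.7 for the 2 on MB, where it lay at 63.7. Just outside it on MA lay Col4a6 at 33.2, and just inside lay Col4a3 at 36.7. These are low readings and do not show that the genes were silent. Col2a1, Col9a2, Col9a3, Col10a1 and Col11a1 of cartilage and Col17a1 of skin junctions were among them, while the cartilage members Col9a1 and Col11a2 passed. Col19a1 and Col22a1 each had an MB probe set that passed, and neither was called in any comparison.

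By class, limma called 1 of 8 tested fibrillar members higher in DM and 0 lower at 5 mM, and the same numbers at 25 mM. That 12.5% higher is close to the 9.95% and 12.7% of all genes called higher at 5 and 25 mM, where 14.2% and 16.7% were called lower. At 25 mM the member counted is Col1a1, whose mean in GM at 25 mM was under the filter. The fibrillar count also rests on the probe set chosen. At 25 mM 2 of 3 Col5a1 and 1 of 2 Col5a2 probe sets were called higher, but not the brightest ones used here. Of 5 tested basement membrane members 0 were higher and 1 lower at 5 mM, and 2 higher and 2 lower at 25 mM. Of 13 tested other members 2 were higher and 4 lower at 5 mM, and 2 higher and 2 lower at 25 mM. For glucose in DM the numbers lower were 1 fibrillar, 2 basement membrane and 1 other. In that order these are 12.5%, 40% and 7.69% of the tested members of the class, against 0.964% of all genes. The counts of other members include calls of Col8a1 and Col16a1 that use a group mean under the filter, which give no support beyond the readings. The median log2 change for DM against GM was -0.01 in fibrillar, 0.05 in basement membrane and -0.05 in other members at 5 mM, and -0.14, -0.50 and -0.18 in the same order at 25 mM. The basement membrane median at 25 mM is the value of Col4a3, which was not called; its class held calls in both directions.

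A class profile was taken as the mean over its tested members of the log2 intensity minus each member's mean over the 12 cultures. For basement membrane members it was -0.27 ± 0.10 in DM at 5 mM, 0.12 ± 0.07 in DM at 25 mM, 0.02 ± 0.05 in GM at 5 mM and 0.12 ± 0.11 in GM at 25 mM (SD, n = 3 each). DM at 5 mM, from -0.37 to -0.18, did not overlap any other group. For fibrillar members the 4 group means lay between -0.03 and 0.04, with SDs of 0.13 to 0.20, and overlapped. For other members it was -0.19 ± 0.07 in DM at 5 mM, 0.06 ± 0.24 in DM at 25 mM, -0.03 ± 0.04 in GM at 5 mM and 0.16 ± 0.12 in GM at 25 mM. No test was made of these profiles.

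Beyond the collagens themselves, 63 genes that modify, export, assemble, cross-link, bind or degrade collagen were listed by role. Of these 47 passed the filter. In DM against GM 8 were higher and 17 lower at 5 mM, or 17.0% and 36.2% of the 47 against 9.95% and 14.2% of all genes. At 25 mM 7 were higher and 19 lower, or 14.9% and 40.4% against 12.7% and 16.7% of all genes. For glucose in DM 1 was higher and 1 lower at 5 mM, or 2.13% each of the 47, against 0.461% and 0.964% of all genes. Limma called 0 in GM (background 0.00824% higher and 0% lower). In the difference between the media it called 0 (background 0.132% and 0.363%).

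Genes of modification and folding moved both ways, with 3 higher and 3 lower of 17 at 5 mM and 2 higher and 5 lower at 25 mM. These are 17.6% higher and 17.6% lower at 5 mM (background 9.95% and 14.2%) and 11.8% higher and 29.4% lower at 25 mM (background 12.7% and 16.7%). Tmem38b, an ion channel of the endoplasmic reticulum needed for normal collagen assembly, read 852, 1205 and 878 in DM at 5 mM, 1053, 1249 and 1357 in DM at 25 mM, 228, 232 and 160 in GM at 5 mM, and it read 111, 124 and 175 in GM at 25 mM. All DM cultures lay above all GM cultures, with a log2 change of 2.14 (adjusted p = 7.35e-07) at 5 mM and a 95% interval of 2.60 to 3.40 (adjusted p = 2.03e-08) at 25 mM. Crtap and P3h3, of the prolyl 3-hydroxylation machinery, were lower, Crtap by -0.60 and -0.87 and P3h3 by -0.63 and -0.98 at 5 and 25 mM, as was the lysyl hydroxylase Plod1 by -0.52 and -0.73. The prolyl 4-hydroxylase subunit P4ha2 (0.76) and the cyclophilin Ppib (0.72) were called higher at 5 mM and not called at 25 mM, and the difference between the 2 changes was not called for either (adjusted p = 0.26 for P4ha2 and 0.438 for Ppib). P4ha1, another such subunit, was the member called for glucose in DM, at 466, 465 and 560 in DM at 5 mM and 306, 303 and 308 in DM at 25 mM (0.66, adjusted p = 0.0246).

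Of 8 tested export genes 2 were higher (background 9.95%) and 2 lower (background 14.2%) at 5 mM, and 3 higher (background 12.7%) and 3 lower (background 16.7%) at 25 mM. The coat protein Sec13 was higher by 0.85 and 1.07 at 5 and 25 mM. Creb3l2, a transcription factor of secretory capacity, was lower by -1.03 and -0.88, and its relative Creb3l1 by -0.51 and -0.47. The small GTPase Sar1b was higher by 0.51 and 0.42, the coat protein Sec23a was higher at 25 mM (0.51) and Sec31a lower (-0.54).

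Genes for cutting procollagen and assembling fibrils had 0 higher and 4 lower of 7 at both glucose levels, or 57.1% lower against 14.2% of all genes at 5 mM and 16.7% at 25 mM. Pcolce2, an enhancer of the C-propeptide protease, lay between 21.3 and 55.7 in DM at 5 mM and between 20.8 and 47.8 in DM at 25 mM, against 231 to 391 in GM at 5 mM and 267 to 284 in GM at 25 mM. Its DM means, 33.7 at 5 mM and 33.5 at 25 mM, were under the filter of 35.5. It passed through its GM means of 333 and 275, so its calls give no support beyond these readings. It is among the 4 counted lower, and the changes were -2.74 (adjusted p = 1.61e-06) at 5 mM and -2.49 (adjusted p = 3.78e-06) at 25 mM. Its relative Pcolce was lower by -1.18 and -1.58, the protease Bmp1 itself by -0.97 and -1.03, and fibronectin (Fn1), on which fibrils are laid down, by -0.44 and -0.74, at 5 and 25 mM.

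Among 4 tested cross-linking enzymes 1 was higher (background 9.95% at 5 mM and 12.7% at 25 mM) and 2 lower (background 14.2% and 16.7%) at both levels. Lysyl oxidase (Lox) read 245, 306 and 336 in DM at 5 mM, 294, 375 and 440 in DM at 25 mM, 2209, 2254 and 2026 in GM at 5 mM, and it read 1929, 1713 and 2098 in GM at 25 mM. Every DM culture was below every GM culture, with -2.80 (adjusted p = 6.2e-09) at 5 mM and -2.32 (adjusted p = 3.91e-08) at 25 mM. Loxl3 was lower by -1.72 and -2.16, and Loxl1 was higher by 0.48 and 0.64.

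Of 5 tested receptors Ddr1 was higher (background 9.95% at 5 mM and 12.7% at 25 mM) and Ddr2 and Mrc2 were lower (background 14.2% and 16.7%) at both levels. The collagen-binding kinase Ddr1 read 373, 483 and 398 in DM at 5 mM, 667, 635 and 568 in DM at 25 mM, 196, 177 and 160 in GM at 5 mM, and it read 188, 151 and 162 in GM at 25 mM, with changes of 1.14 (adjusted p = 1.47e-05) and 1.79 (adjusted p = 1.6e-07) at 5 and 25 mM. Its relative Ddr2, which binds fibrillar collagen, was lower by -0.74 and -0.64. Mrc2, an endocytic collagen receptor, was lower by -1.04 and -0.75.

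Of 6 tested genes of collagen breakdown 1 was higher (background 9.95%) and 4 lower (background 14.2%) at 5 mM, and 0 higher (background 12.7%) and 3 lower (background 16.7%) at 25 mM. The proteases Mmp14 (-0.90 and -1.06) and Mmp2 (-1.16 and -0.90), and the protease inhibitor Timp1 (-1.26 and -1.78), were lower at 5 and 25 mM. Timp3, another inhibitor, read 224, 208 and 144 in DM at 5 mM, 368, 424 and 295 in DM at 25 mM, 404, 396 and 477 in GM at 5 mM, and it read 477, 475 and 420 in GM at 25 mM. DM at 5 mM was below all other cultures, by -1.09 (adjusted p = 0.000157) against GM at 5 mM and by -0.86 (adjusted p = 0.0152) against DM at 25 mM. The difference between its glucose changes was -0.76 (adjusted p = 0.23).

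**Figure D5:**
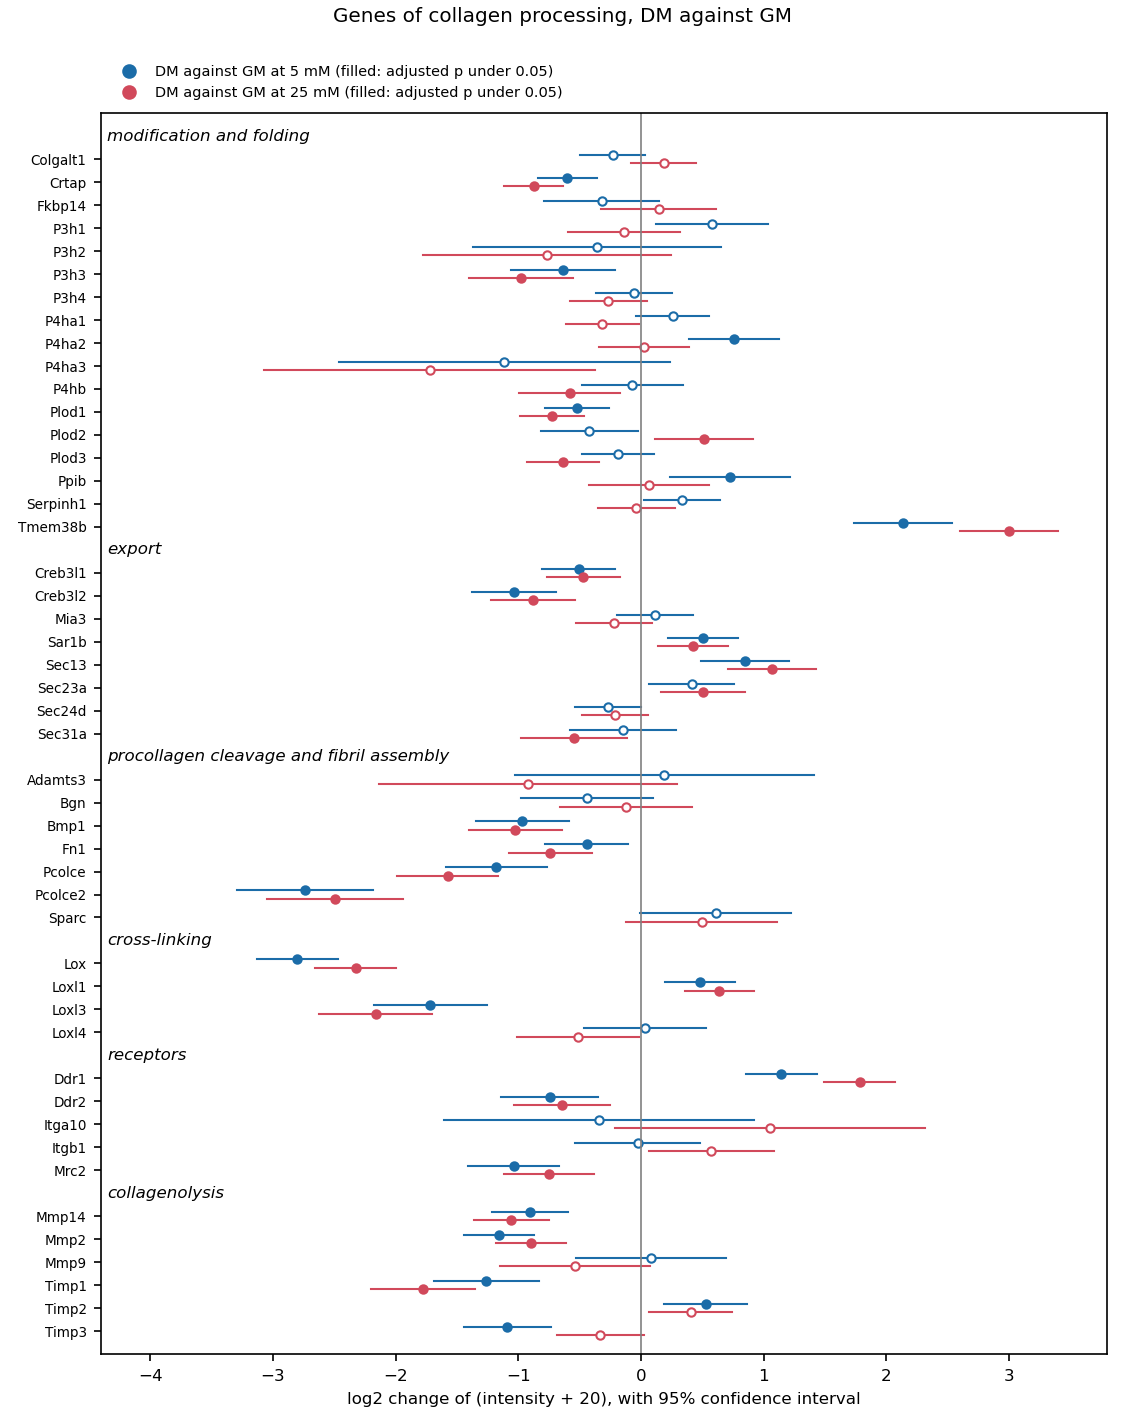
Log2 change of intensity plus 20 in DM against GM (x axis) for the 47 tested genes that act on collagen, grouped by role, at 5 mM (blue) and 25 mM (red); bars are 95% confidence intervals and filled points have an adjusted p under 0.05. Tmem38b and Ddr1 lie to the right at both glucose levels, and Lox, Loxl3, Pcolce2 and Pcolce lie to the left at both.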

How the data were processed

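The authors deposited 1 linear intensity per probe set and array. The software, background correction and scaling target behind it are not given in the sources used here. The arrays of a design shared a common trimmed mean of about 150.0, so they were used with the authors' scaling. Probe sets were named through the platform annotation, with those naming 1 gene alone kept. Intensities were analysed as log2(intensity + 20), so a log2 change understates the change of dim genes. Probe sets above the 40th percentile of mean intensity of their design were tested (35.5 on MA, 63.7 on MB), without control probe sets. Limma 3.58.1 in R 4.3.3 fitted 4 group means per design (lmFit, eBayes with trend), two-sided, with Benjamini-Hochberg adjustment over all tested probe sets of the design; called means an adjusted p under 0.05. The difference between media subtracts the log2 glucose change of GM from that of DM. Levels of different probe sets were not compared with each other.

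The members, classes and other lists were chosen with earlier results of these data known. Members follow the naming rule; values per culture are given for every member called in at least 1 comparison, and in each pathway list the called genes with the largest absolute change are named. Correlations between cultures of a group on the log2 scale lay between 0.952 and 0.987 on MA and between 0.797 and 0.919 on MB, with 0 identical columns, and precision is limited by how many arrays there are. Alternatives were other pseudocounts (1 and 64), filters (the 60th percentile and none), eBayes without trend, median centring, quantile normalization, the replicate number or the 18S batch as a block, the 8 high-18S cultures alone, other probe set choices, and each culture left out in turn. The low-18S cultures alone hold 1, 1, 2 and 0 cultures of the 4 groups, too few for a value.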

Additional observations from a re-analysis of the deposited data

Results flagged for a closer look

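For 3 collagen genes the change with glucose differed between the media by the test of that difference. The test of Col1a1 uses GM at 25 mM, where its mean was under the filter. Its call therefore gives no support beyond its readings. The change in DM less the change in GM was -1.86 on the log2 scale for Col1a1, -1.05 for Col4a1 and -0.98 for Col4a2. For Col1a1 the changes were of opposite sign, -0.87 in DM and 0.99 in GM, and a dimmer probe set of the gene gave 0.24 for the difference (adjusted p = 0.83). For Col4a1 they were -0.85 in DM and 0.19 in GM, and for Col4a2 -0.94 in DM and 0.05 in GM; a dimmer Col4a1 probe set gave -0.95 for the difference (adjusted p = 0.039).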

How the results depend on the processing

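Of 24 calls of a collagen gene in a comparison, 13 were kept under every one of the 25 alternatives that gave a value, 11 were lost under at least 1, and 0 reversed. The 13 include Col1a1 for DM against GM at 25 mM, although its mean in GM at 25 mM was under the filter. No alternative used the dimmer Col1a1 probe set, which was not called in that comparison. With the 18S batch as a block 7 collagen genes were called lower at 5 mM in DM, against 4. Calls over all 12135 genes rose as well with that block, from 117 to 240 lower and from 56 to 179 higher. Within the 8 high-18S cultures 0 collagen genes were called for the difference between media, against 3; GM at 5 mM then has 1 culture, assumed to vary like the other groups. Leaving out 1 culture at a time, the calls ranged from 6 to 10 for DM against GM at 25 mM (9 with all), 7 to 8 at 5 mM (8), 2 to 4 for glucose in DM (4), 0 to 0 for glucose in GM (0) and 2 to 4 for the difference between media (3). The lowest count for glucose in DM, 2, came without replicate 2 of DM at 25 mM. Under the other alternatives these counts ranged from 6 to 9, 6 to 11, 3 to 7, 0 to 0 and 0 to 3.

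The replicate numbers of the titles were not seen to pair the samples. On MA the deviations of same-numbered cultures correlated between -0.56 and 0.52 (median -0.03), over 0.1 in 3 of 18 pairs. The low-18S replicate 2 of DM at 5 mM and replicate 3 of DM at 25 mM correlated at 0.72. These values thus mix with the 18S split, and the check cannot decide whether the numbers are pairs. With the number as a block 7 collagen genes were called at 25 mM, 8 at 5 mM, 3 for glucose in DM, 0 in GM and 3 for the difference between media. Members near the filter, such as Col4a5, Col16a1 and the dimmer Col1a1 probe set, are limited by signal over background.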

Other observations

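The Col1a2 probe set on MB differed from both MA probe sets of the gene. It read 47.7, 118 and 53.7 in DM at 5 mM, 176, 55.9 and 157 in DM at 25 mM, 585, 303 and 140 in GM at 5 mM, and it read 179, 215 and 262 in GM at 25 mM. DM lay below GM at both glucose levels, and the change was called at 5 mM (-1.83, adjusted p = 0.0229) and not at 25 mM (-0.77, adjusted p = 0.433). It did not show the split by the 18S control seen in the brightest probe set, as 2 low-18S cultures held its highest readings.

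The second MA probe set of Col1a2 read 1179, 922 and 1090 in DM at 5 mM, 1130, 1127 and 959 in DM at 25 mM, 1077, 1101 and 1537 in GM at 5 mM, and it read 1360, 1402 and 1419 in GM at 25 mM. In every group that held both kinds, its low-18S cultures read below its high-18S cultures. All 3 cultures of DM at 25 mM lay below those of GM at 25 mM, a change of -0.38 (adjusted p = 0.0651).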
